A study of Mus musculus with 10 samples.

Results

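The abundant long noncoding RNAs (lncRNAs) of the mouse heart were taken as all genes of GENCODE type lncRNA, other than Mhrt, with a mean of at least 5 CPM (the counts-per-million scale) over 10 hearts. They were thus chosen by their measured level, and the rule kept 165 of the 10922 lncRNAs in the count tables, which list 56748 genes in all, and 5655 lncRNAs had a count in any heart. Levels are therefore described here without a test; the rule did not use the groups. RNA was sequenced from whole hearts, with both atria, of male wild-type C57BL/6 mice, 5 trained by force on a treadmill for 8 weeks and 5 kept sedentary to the same age. Training ran at 15 m/min for 120 minutes a day on 5 days a week. Each heart gave 1 directional poly-A library, with between 29461697 and 35945417 counts on genes after training and between 35196993 and 39431030 in sedentary mice. The comparison asked which of these RNAs differed in level between trained and sedentary hearts. In whole tissue, fewer cells of a type and less RNA per cell cannot be told apart.

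LncRNAs are transcripts without a known protein product. Some work in the nucleus, such as Malat1 in nuclear speckles and Neat1, the scaffold of paraspeckles. Others are the primary transcripts from which small nucleolar RNAs (snoRNAs) or microRNAs (miRNAs) are cut, are expressed from 1 parental allele as imprinted genes, or run antisense to a coding gene or away from its promoter. In the heart, such transcripts lie beside genes of cardiac development and of the sarcomere, Hand2 and Actc1 among them.

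Most of the 165 lncRNAs were of low level, and a few held most of the reads. The mean lay between 5.01 and 755 CPM with a median of 8.91 CPM, 95 lncRNAs were under 10 CPM and 5 were over 100 CPM. Together they held 0.450% of the gene counts after training and 0.451% in sedentary hearts, and single hearts lay between 0.419% and 0.477%. Malat1, Neat1, Gm57414 and Oip5os1 alone took between 47.7% and 51.8% of these counts in every heart. As many as 73 carried a predicted-gene symbol beginning with Gm and 46 a RIKEN symbol. The lncRNAs just inside the limit were 2010320M18Rik at 5.01, D830039M14Rik at 5.04 and Gm19522 at 5.05 CPM, and just outside it were Gm46620 and Gm31013 at 4.98 CPM each and Kcnq1ot1, an imprinted antisense transcript, also at 4.98 CPM.

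Values of single hearts are given below in CPM on library sizes corrected by the trimmed mean of M values (TMM), in the order of hearts 1 to 5. Malat1 (chromosome 19 of GRCm39, 5845717 to 5853602) was at 781, 724, 667, 773 and 733 CPM after training and at 822, 703, 811, 783 and 757 CPM in sedentary hearts. The groups overlapped, with a log2 fold change (training over sedentary) of −0.08 (standard error 0.05, edgeR adjusted p = 0.484). Neat1, its neighbour on the same strand (5874736 to 5897132), was at 667, 613, 450, 656 and 689 CPM after training and at 704, 667, 658, 442 and 632 CPM in sedentary hearts. The lowest heart of each group, training heart 3 and sedentary heart 4, lay well under the others, and the groups overlapped (log2 fold change −0.01, edgeR adjusted p = 0.969). Gm57414, which has no descriptive name, had a log2 fold change of −0.05 (edgeR adjusted p = 0.721), and Oip5os1, also called Cyrano and known to direct the decay of miR-7, of −0.03 (edgeR adjusted p = 0.803). Norad, which binds Pumilio proteins, was at 118 ± 4.47 CPM (SD, n = 5) in training and 110 ± 6.56 CPM in sedentary hearts (log2 fold change 0.10, edgeR adjusted p = 0.253). Of the 10 most abundant lncRNAs, Actc1dt alone passed an FDR of 0.1. Per kilobase of annotated exon, the order changed: Gm57414 led with 137 CPM per kilobase, followed by Malat1 with 95.7, Bc1 with 44.9 and Gm15543 with 35.7, while Neat1, with 22397 exon bases, was at 27.6. All these are levels in poly-A libraries. The share of each RNA or isoform that poly-A selection captured was not measured, so the order need not be that of the RNAs in the tissue.

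Across the 165 lncRNAs, 19 passed an FDR of 0.1 in edgeR's quasi-likelihood test (11.5%), against 7.01% of all 15454 genes tested. 2 were higher (1.21%) and 17 were lower (10.3%) after training, against 2.75% and 4.26% of all genes. With library totals alone in place of TMM factors, the split was 6 higher and 11 lower. All 165 passed the filter on low counts. The limit of 5 CPM was set on the mean over both groups, so a lower lncRNA could meet it through its sedentary hearts alone. Among the called lncRNAs, 4631405J19Rik, Gm17029, Gm42047, Gm33609 and D830039M14Rik had training means under 5 CPM. They met the limit through the sedentary group. The median log2 fold change was −0.04, with 64 lncRNAs above 0 and 101 below, against 0.0003 over all genes tested. Protein-coding genes of at least 5 CPM passed in 8.97% of 10025 cases with a median of −0.01, and the 1107 tested lncRNAs under 5 CPM in 2.26% with a median of −0.05. In 8 of the 165 lncRNAs (4.85%) the groups did not overlap, against 5.06% of all genes tested. The count of 19 fell to 8 without sedentary heart 3 and to 4 with the score of atrial marker genes as a covariate.

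**Figure D1:**
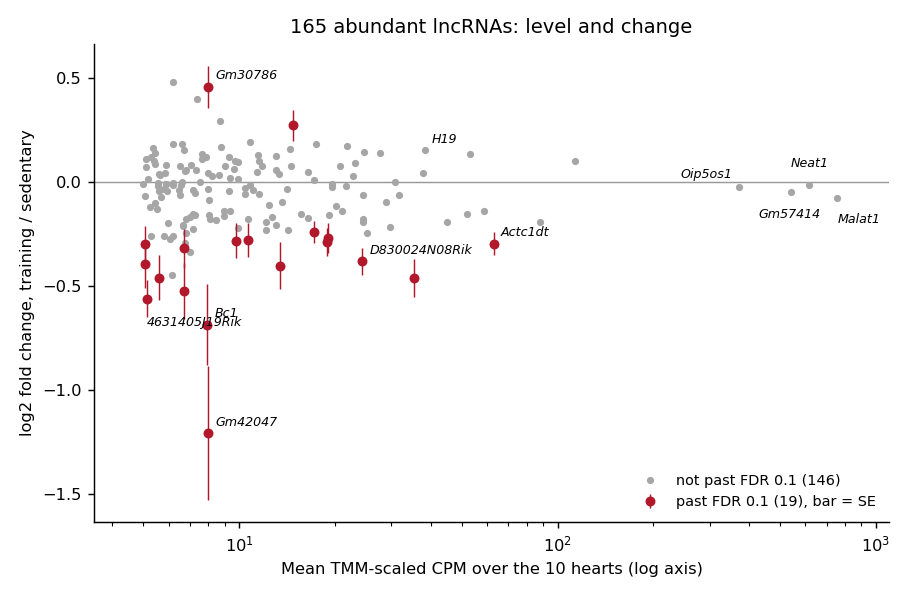
Change against level for the 165 abundant lncRNAs: the x axis is the mean TMM-scaled CPM over the 10 hearts (log axis), the y axis the log2 fold change, training over sedentary. Red points with standard errors are the 19 lncRNAs past an FDR of 0.1, of which 17 lie below 0; the 4 most abundant lncRNAs lie between −0.08 and −0.01.

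The lncRNAs without overlap between groups that also passed the test were all lower after training: 4631405J19Rik, Gm15543, Gm17029, D830024N08Rik, Actc1dt and 2210408F21Rik. 4631405J19Rik (ENSMUSG00000075027, chromosome 2, 92858301 to 92875077), antisense to Prdm11 without sharing exon sequence, was at 4.44, 3.81, 4.26, 4.23 and 3.91 CPM in training and at 5.32, 6.34, 7.00, 5.78 and 6.11 CPM in sedentary hearts. Every training heart lay below every sedentary heart, and the log2 fold change of −0.56 (standard error 0.09) had the lowest edgeR adjusted p of the 165 lncRNAs, 0.00874. All training hearts were under 5 CPM and all sedentary hearts above it, so 4631405J19Rik met the limit on the mean only through the sedentary group. D830024N08Rik (ENSMUSG00000110580, chromosome 8, 84302663 to 84323940), antisense to Tecr, the last enzyme of the cycle that lengthens very-long-chain fatty acids, was at 22.5, 20.8, 19.5, 20.9 and 22.0 CPM in training and at 27.2, 23.7, 27.8, 30.7 and 27.9 CPM in sedentary hearts. It fell by 0.38 on the log2 scale (standard error 0.06, edgeR adjusted p = 0.0116), and the nearest hearts of the groups were 22.5 and 23.7 CPM.

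Gm15543 (ENSMUSG00000086863, chromosome 6, 145127918 to 145133649), antisense to the axonemal dynein gene Dnai7, was at 34.4, 31.9, 30.9, 29.7 and 21.7 CPM in training and at 40.5, 39.1, 43.0, 40.4 and 41.5 CPM in sedentary hearts. The sedentary hearts lay close together and training heart 5 was the lowest of all (log2 fold change −0.46, standard error 0.09, edgeR adjusted p = 0.0216). Gm17029 (chromosome 4, 149044754 to 149069128) shares exon sequence in antisense with Pex14, which codes for a protein of peroxisomal import, and was at 3.82, 5.44, 4.79, 5.38 and 4.18 CPM against 6.01, 6.37, 7.45, 6.54 and 6.11 CPM (log2 fold change −0.46, edgeR adjusted p = 0.0354). The call of Gm17029 was lost with the counts of both strands and with the atrial score as a covariate. 2210408F21Rik, on chromosome 6 with no coding gene in its span, was at 15.8 ± 0.724 CPM (SD, n = 5) in training and 18.6 ± 0.904 CPM in sedentary hearts (log2 fold change −0.24, edgeR adjusted p = 0.0278, but 0.120 with the atrial score as a covariate). These changes were small in size, since the training means were between 67.7% and 84.7% of the sedentary means.

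Actc1dt (ENSMUSG00000092397, chromosome 2, 113884816 to 113895356) starts beside Actc1, the gene of cardiac alpha-actin, and runs in the opposite direction. It was at 54.3, 62.8, 59.3, 54.9 and 51.4 CPM in training and at 64.4, 71.8, 69.4, 74.1 and 67.5 CPM in sedentary hearts. The groups did not overlap, by a margin of 62.8 to 64.4 CPM, and the log2 fold change was −0.30 (standard error 0.06, edgeR adjusted p = 0.0192). Actc1 itself was at 8022 ± 849 CPM (SD, n = 5) in training and 10470 ± 858 CPM in sedentary hearts, a log2 fold change of −0.38 (edgeR adjusted p = 0.022). The ratio of the pair differed by 0.09 on the log2 scale between the groups (exact two-sided permutation p = 0.111, n = 5 per group). The expected counts of the authors, which share out reads with several matches, gave Actc1dt 2.51 times the uniquely mapped count, and it also passed the test on them. With the score of atrial marker genes as a covariate, Actc1dt did not pass (edgeR adjusted p = 0.136).

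**Figure D2:**
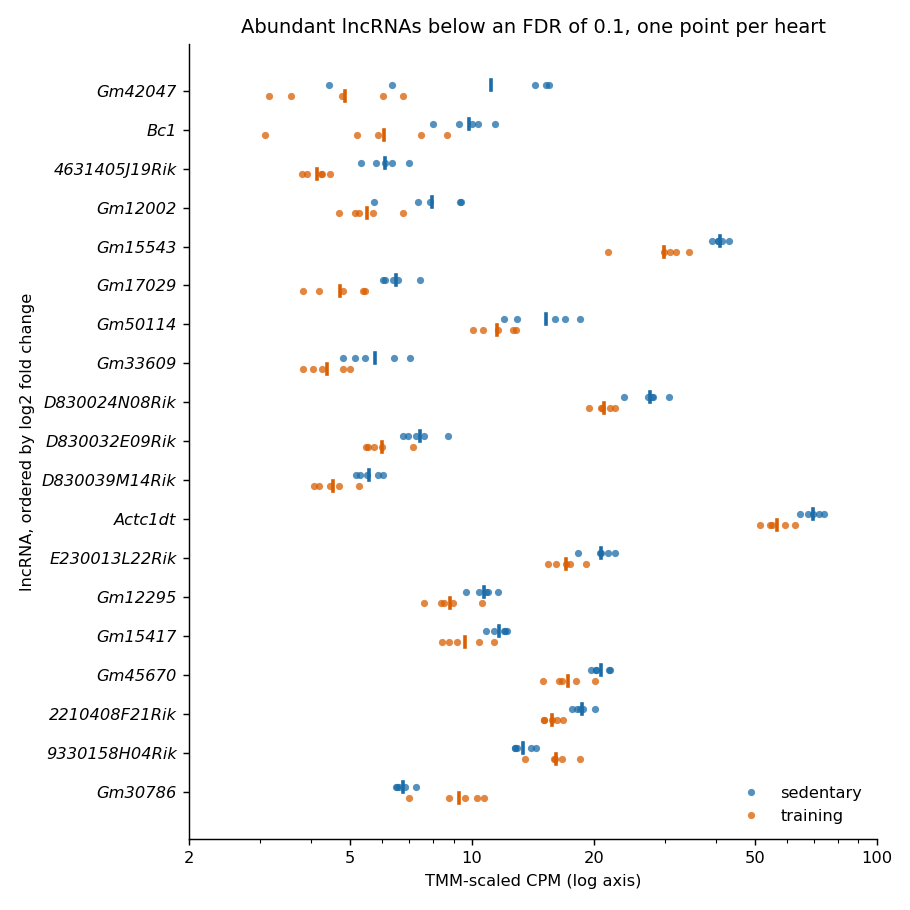
TMM-scaled CPM (log axis) of the 19 lncRNAs past an FDR of 0.1, with 1 point per heart, 5 training (orange) and 5 sedentary (blue) hearts, and a bar at each group mean. Groups do not overlap in 6 of the 19, all lower after training, as were 17 of the 19. Over all 165 lncRNAs the groups did not overlap in 4.85%, against 5.06% of all genes tested. For Gm42047 the sedentary hearts split between 4.44 to 6.36 and 14.3 to 15.5 CPM.

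The largest changes were less steady between hearts. Gm42047 (chromosome 8, 122559877 to 122567924), which has no coding gene in its span, was at 3.14, 3.58, 6.02, 4.76 and 6.73 CPM in training and at 15.2, 15.5, 14.3, 4.44 and 6.36 CPM in sedentary hearts. Sedentary hearts 1 to 3 lay well above all others, while sedentary hearts 4 and 5 were within the range of the training hearts (log2 fold change −1.21, standard error 0.32, edgeR adjusted p = 0.0582). The nearest coding gene, Klhdc4, was at 12.6 CPM in both groups. Bc1, a short RNA copied by RNA polymerase III and known as a repressor of translation in neurons, was at 8.69, 5.84, 7.50, 5.20 and 3.08 CPM in training and at 11.4, 10.3, 10.0, 7.99 and 9.29 CPM in sedentary hearts. Training heart 1 overlapped the sedentary range, and the log2 fold change was −0.68 (standard error 0.20, edgeR adjusted p = 0.0723). The call of Gm42047 was lost on leaving out training heart 1 or 4 or sedentary heart 2 or 3, and that of Bc1 on leaving out training heart 2 or 4 or sedentary heart 2, 3 or 5. Both calls were also lost with the atrial score as a covariate (edgeR adjusted p = 0.188 each).

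Bc1 has the fewest annotated exon bases of the 165 lncRNAs, 176, and is shown whole for its central A-rich stretch, in capitals (bases 85 to 125, 36 of 41 of them A). The sequence is that of GRCm39, chr7:144468199-144468374, plus strand.
Bc1: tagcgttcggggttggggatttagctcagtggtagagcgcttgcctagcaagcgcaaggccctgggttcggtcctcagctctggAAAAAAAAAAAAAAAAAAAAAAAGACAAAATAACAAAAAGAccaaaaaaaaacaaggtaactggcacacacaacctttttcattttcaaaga
The single short exon of Bc1 resembles the ID repeats, which derive from it. The expected counts gave Bc1 0.172 times the uniquely mapped count, the lowest such ratio of the 165 lncRNAs. The cause of this low ratio was not tested.

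Further lncRNAs lower after training, in all of which the groups overlapped, lay beside coding genes or had no coding gene in their span. Gm12002, antisense to the actin nucleator gene Cobl, fell by 0.53 on the log2 scale (edgeR adjusted p = 0.0498), from 7.94 ± 1.53 to 5.50 ± 0.777 CPM (SD, n = 5 each). Gm50114, antisense to Vldlr, the very-low-density lipoprotein receptor gene, was at 11.5 ± 1.22 CPM in training and 15.3 ± 2.75 CPM in sedentary hearts (log2 fold change −0.40, edgeR adjusted p = 0.0697). Gm12295 lies on the same strand within the span of Myocd, the gene of the serum response factor coactivator myocardin, and was at 8.80 ± 1.11 CPM against 10.7 ± 0.724 CPM (log2 fold change −0.28, edgeR adjusted p = 0.084). The others were Gm33609 beside Paqr3, D830039M14Rik beside Lrrc20, E230013L22Rik beside the GTPase gene Rab20, Gm15417 beside the FAD synthetase gene Flad1, Gm45670 beside the helicase gene Dhx32, and D830032E09Rik with no coding gene in its span, with log2 fold changes between −0.39 and −0.27. 11 of the 17 lower lncRNAs had overlapping groups. In 10 fits that each left out 1 heart, Gm12295 passed in 2, without training heart 4 or sedentary heart 2, Gm50114 in 3, without training heart 2 or sedentary heart 2 or 5, and Gm12002 in 6, lost without training heart 3 or sedentary heart 2, 3 or 4. D830039M14Rik passed in 2, Gm33609 and D830032E09Rik in 3, Gm15417 and Gm45670 in 4 and E230013L22Rik in 9 of these fits. With library totals alone, Gm12295, Gm50114, Gm33609, D830032E09Rik, D830039M14Rik and Gm15417 did not pass. With the counts of both strands, Gm12295, D830039M14Rik and Gm15417 did not pass, with expected counts Gm33609, with thinned counts Gm50114 and D830032E09Rik, and with the replicate block Gm12295. With the atrial covariate, Gm50114 alone of these 9 lncRNAs passed.

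Only 2 lncRNAs passed the test in the other direction. Gm30786 (ENSMUSG00000120678, chromosome 11, 65396197 to 65540681) was at 10.3, 6.99, 10.7, 8.75 and 9.62 CPM in training and at 7.25, 6.54, 6.60, 6.83 and 6.49 CPM in sedentary hearts. Training heart 2 lay inside the sedentary range and the other 4 above it (log2 fold change 0.46, standard error 0.10, edgeR adjusted p = 0.0304). The call of Gm30786 held in all 10 fits that left out a heart, but was lost with the atrial score as a covariate (edgeR adjusted p = 0.254). 9330158H04Rik, antisense to Chrm2, the gene of the main muscarinic receptor of the heart, was at 16.1 ± 1.76 CPM in training and 13.3 ± 0.773 CPM in sedentary hearts (SD, n = 5 each), a log2 fold change of 0.27 (edgeR adjusted p = 0.0607). The call of 9330158H04Rik was lost without training heart 1, 3 or 4 or sedentary heart 2, 3 or 5. It was also lost with the atrial score as a covariate (edgeR adjusted p = 0.404). Chrm2 had a log2 fold change of 0.12 (edgeR adjusted p = 0.151). Gm20300 and Cep83os were higher in every training heart than in any sedentary heart but did not pass, with log2 fold changes of 0.14 (edgeR adjusted p = 0.125) and 0.18 (edgeR adjusted p = 0.252).

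Windows around the start sites of the called lncRNAs were read from GRCm39 and searched on both strands for motifs of heart transcription factors and of core promoters. The CArG box of serum response factor, an A/T-rich motif that can overlap a TATA box or an MEF2 motif, was found between 250 bases before and 50 bases after the start of 3 of the 19 called lncRNAs (15.8%), 2.42% of the 165 and 1.35% of 15378 tested genes with an annotated start. An MEF2 motif was found in 2 of the 19 (10.5%), in 3.64% of the 165 and in 1.5% of all. The letters TATAAA were in 15.2% of the 165 windows and 8.96% of all, GGGCGG in 37.0% and 53.7%, CACGTG in 6.06% and 9.43%, and the median GC content was 52.7% against 57.3%. CACGTG, the E-box letters, were in 0 of the windows of the 19, and a glucocorticoid response element was matched in 1 of them, D830032E09Rik. The motifs were chosen with the results known, a match is no evidence of binding, and counts of 3 and 2 are small. The 5 windows with a CArG or MEF2 match are shown from 100 bases before to 50 bases after the start, each in the sense of its lncRNA with the match in capitals; the first 3 hold the CArG box and the last 2 the MEF2 motif.
Gm17029, chr4:149044683-149044832, plus strand: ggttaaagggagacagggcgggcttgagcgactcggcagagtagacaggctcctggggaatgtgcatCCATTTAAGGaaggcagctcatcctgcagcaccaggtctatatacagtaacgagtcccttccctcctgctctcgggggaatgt
Gm50114, chr19:27239719-27239868, minus strand: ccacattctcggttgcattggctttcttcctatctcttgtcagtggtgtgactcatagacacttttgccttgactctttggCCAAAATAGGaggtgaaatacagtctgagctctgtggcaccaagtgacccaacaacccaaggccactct
Gm45670, chr7:133349126-133349275, plus strand: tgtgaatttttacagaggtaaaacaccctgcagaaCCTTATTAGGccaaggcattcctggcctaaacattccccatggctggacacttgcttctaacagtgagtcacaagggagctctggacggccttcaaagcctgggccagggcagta
Gm30786, chr11:65540629-65540778, minus strand: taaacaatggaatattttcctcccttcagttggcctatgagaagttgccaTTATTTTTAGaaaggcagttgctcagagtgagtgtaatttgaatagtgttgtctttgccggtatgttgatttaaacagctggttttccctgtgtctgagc
D830032E09Rik, chr1:107844927-107845076, plus strand: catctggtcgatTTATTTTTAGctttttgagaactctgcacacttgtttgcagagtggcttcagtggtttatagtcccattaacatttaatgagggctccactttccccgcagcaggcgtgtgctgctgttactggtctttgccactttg
The CArG boxes began 33, 19 and 65 bases before the start, in that order, and the MEF2 matches 50 and 88 bases before it. The start is that of the canonical GENCODE transcript, which can lie inside the span of the gene: by 29 bases in Gm17029, 66431 in Gm50114, 0 in Gm45670, 3 in Gm30786 and 72 in D830032E09Rik. The lncRNAs of these windows did not all change the same way: Gm30786 was higher after training and the other 4 lower.

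By position, 69 of the 165 lncRNAs shared exon sequence with a coding gene on the opposite strand, 15 ran antisense without shared exons, 8 started within 1000 bases of a coding gene in the opposite direction, 6 shared exon sequence on the same strand, 5 lay within a coding gene on its strand, and 62 touched no coding gene. The test was passed by 8 of the 69, 4 of the 15, 1 of the 8, 0 of the 6, 1 of the 5 and 5 of the 62, where 11.5% of the 165 and 7.01% of all genes tested did, and the classes were not tested against each other. Of the 6 with shared exons, 1 had an unadjusted p under 0.05 in edgeR and 0 passed in DESeq2. For 97 lncRNAs a coding partner of at least 1 CPM was at hand, and 11 partners passed, 10 of them lower, where 8.97% of coding genes of at least 5 CPM passed. Both members of the pair passed in 4 of 97 cases: Actc1dt and Actc1, D830039M14Rik and Lrrc20, and Gm15417 and Flad1 were all lower, while Gm12002 was lower and Cobl higher. Among the 14 called lncRNAs with a partner, 11 had the same sign as the partner, and 55 of all 97 pairs had the same sign.

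The ratio of an lncRNA to its partner was tested by exact two-sided permutation of the hearts; library size cancels in it. Of 97 ratios, 25 had p under 0.05. In edgeR, a different test, 44 of the 165 lncRNAs and 3087 of all 15454 genes tested had an unadjusted p under 0.05. Ratios of unrelated genes were not tested, so the 25 are not read as a result about the pairs. Of the 97 ratios, 9 reached 0.00794, the smallest p that 5 against 5 hearts allow, which is 0.0855 after adjustment over all 97 ratios. The widest of these 9 was the pair of 9530026P05Rik and Adamts9, the gene of a secreted metalloprotease of the ADAMTS family. Adamts9 was at 27.9, 32.5, 30.4, 31.5 and 31.2 CPM in training and at 42.2, 51.9, 45.9, 49.5 and 49.6 CPM in sedentary hearts, and 9530026P05Rik at 5.24 ± 0.758 and 4.97 ± 0.619 CPM (SD, n = 5 each). Thus Adamts9 had no overlap between groups (log2 fold change −0.64, edgeR adjusted p = 0.000746), its antisense lncRNA had a log2 fold change of 0.07 (edgeR adjusted p = 0.78), and their log2 ratio differed by 0.71. In the opposite case, 4631405J19Rik moved more than Prdm11, whose log2 fold change was −0.15 (edgeR adjusted p = 0.191), and the log2 ratio differed by −0.41. Gm17029 against Pex14 differed by −0.40.

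Hand2os1 and Atcayos were further pairs whose coding gene alone passed. Hand2os1, the transcript called upperhand, antisense to the cardiac transcription factor gene Hand2, was at 58.2, 52.4, 52.9, 55.8 and 60.2 CPM in training and at 65.2, 62.4, 65.0, 60.1 and 54.5 CPM in sedentary hearts (log2 fold change −0.14, edgeR adjusted p = 0.196). Hand2 was at 44.3 ± 2.64 CPM in training and 52.3 ± 3.07 CPM in sedentary hearts without overlap (log2 fold change −0.24, edgeR adjusted p = 0.0292). Their ratio differed by 0.10 on the log2 scale (exact two-sided permutation p = 0.325, n = 5 per group). Atcayos overlaps Nmrk2, the gene of a nicotinamide riboside kinase, which fell from 9.08 ± 2.29 to 4.18 ± 1.32 CPM (log2 fold change −1.11, edgeR adjusted p = 0.0169), while Atcayos was at 47.9 ± 8.42 and 41.9 ± 4.76 CPM (log2 fold change −0.19, edgeR adjusted p = 0.355). Their log2 ratio differed by 0.96, the largest difference of the 97 pairs, with a wide spread between hearts (SD 0.58 in training and 0.55 in sedentary hearts, exact two-sided permutation p = 0.0397, adjusted p = 0.167).

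**Figure D3:**
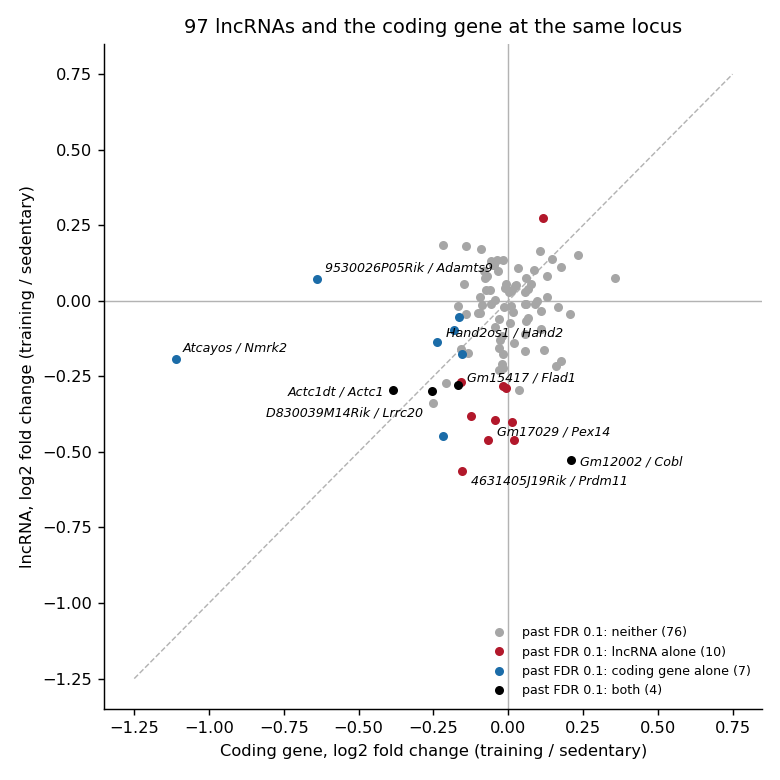
Log2 fold change of 97 lncRNAs (y axis) against that of the coding gene at the same locus (x axis), training over sedentary; colours mark which of the pair passed an FDR of 0.1, and the dashed line marks equal change. In 10 pairs the lncRNA alone passed, in 7 the coding gene alone and in 4 both; the pairs of Nmrk2 and Adamts9 lie farthest to the left.

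Known functional groups within the 165 lncRNAs were read from hand-written lists. The list named for nuclear architecture gave 6 lncRNAs: Malat1, Neat1, Firre, the Pumilio-binding Norad and the imprinted Meg3 and Airn. None of these 6, of 6 snoRNA hosts, of 5 miRNA hosts and of 6 imprinted lncRNAs passed the edgeR test, where 7.01% of all genes did. Together they are 18 lncRNAs, as some stand in several groups. Of the 18, 2 had an unadjusted p under 0.05 in edgeR and 0 passed in DESeq2. Among imprinted lncRNAs, H19, Meg3 and Rian, which are expressed from the maternal allele, had log2 fold changes of 0.15, 0.18 and 0.17 and Peg13 of 0.13, while Airn, which runs through Igf2r, was at −0.17 and Snhg14 at −0.21. H19 ranged from 30.0 to 52.0 CPM in training and from 23.0 to 48.9 CPM in sedentary hearts, so the spread within a group was wider than the difference of the means, 40.3 ± 9.79 against 36.2 ± 11.0 CPM (SD, n = 5 each). The snoRNA hosts Gas5, Snhg1, Snhg14, Snhg18, Zfas1 and Rian lay between −0.21 and 0.17. Gas5 was at 21.5 ± 2.35 CPM in training and 21.8 ± 0.409 CPM in sedentary hearts, with edgeR adjusted p = 0.901. Of the 3 lncRNAs listed for the heart and matched by name, Hand2os1, Oip5os1 and Gm12295, the last alone passed, with the limits given for it above. The cardiac hypertrophy transcript Chaer1, listed under its other name Chaer and so not matched by symbol, was at 9.87 ± 1.28 and 9.44 ± 1.17 CPM (log2 fold change 0.06, edgeR adjusted p = 0.791). Listed antisense transcripts of Trdn and Pcdh7 were not matched by name either. The abundant lncRNAs antisense to these genes, D830005E20Rik and 4932441J04Rik, which no table used here equates with the listed ones, had log2 fold changes of −0.17 (edgeR adjusted p = 0.35) and 0.04 (edgeR adjusted p = 0.842).

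10 of the 165 lncRNAs hold miRNA genes in their span, 20 in number, of which 17 were matched in the RefSeq table of GRCm38.p6. Some mature sequences from 5 of these hosts are shown, most of them chosen because their seeds recur between hosts or within a host. The seeds, the bases 2 to 8 that select targets, are given in capitals. Most seeds did not recur: the 32 mature sequences of all hosts had 28 distinct seeds. Mir100hg and Mir99ahg each hold a member of the miR-99 and miR-100 family and share miR-125b, Dleu2 holds miR-15a and miR-16 with a common seed, A330023F24Rik holds miR-29b and miR-29c with a common seed, and Mir22hg, which shares no seed with the others, holds miR-22, which is abundant in heart muscle.
miR-100-5p: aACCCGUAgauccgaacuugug
miR-99a-5p: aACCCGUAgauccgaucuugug
miR-125b-5p: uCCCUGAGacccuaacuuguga
miR-15a-5p: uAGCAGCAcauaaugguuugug
miR-16-5p: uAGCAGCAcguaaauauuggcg
miR-29b-3p: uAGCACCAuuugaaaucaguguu
miR-29c-3p: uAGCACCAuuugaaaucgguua
miR-22-3p: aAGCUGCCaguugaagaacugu
Mature miRNAs were not measured, and the values are those of the host transcripts. Mir100hg was at 15.3 ± 0.791 CPM in training and 13.7 ± 2.81 CPM in sedentary hearts (log2 fold change 0.16, edgeR adjusted p = 0.464), and Mir99ahg at 10.3 ± 0.565 and 10.5 ± 0.720 CPM (log2 fold change −0.03, edgeR adjusted p = 0.842). Mir22hg was at 14.9 ± 1.08 and 14.1 ± 1.74 CPM, Dleu2 at 6.95 ± 0.862 and 6.67 ± 0.720 CPM, and A330023F24Rik at 11.3 ± 2.38 and 11.8 ± 1.46 CPM (SD, n = 5 each). In each of these hosts the groups overlapped.

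Reads on the other strand were few for most of the 165 lncRNAs. The other strand held under 5% of the reads over the lncRNA in 129 cases, and more reads than the lncRNA itself in 7, namely Gm9899, Rab10os, Oxct1as, Snhg14, 9130221H12Rik, 4932441J04Rik and Gm17029. For Oxct1as, opposite the ketone body enzyme gene Oxct1, 87.5% of the reads were on the other strand, and for Gm17029, opposite Pex14, 66.8%. Over 843 coding genes of high count and no antisense annotation, the wrong strand held a median of 0.179% of the reads. At that rate, reads leaking from the other strand came to over 10% of the count of the lncRNA in 0 of 165 cases. With the counts of both strands, 15 lncRNAs passed the test, and Gm17029 was not among them.

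**Figure D4:**
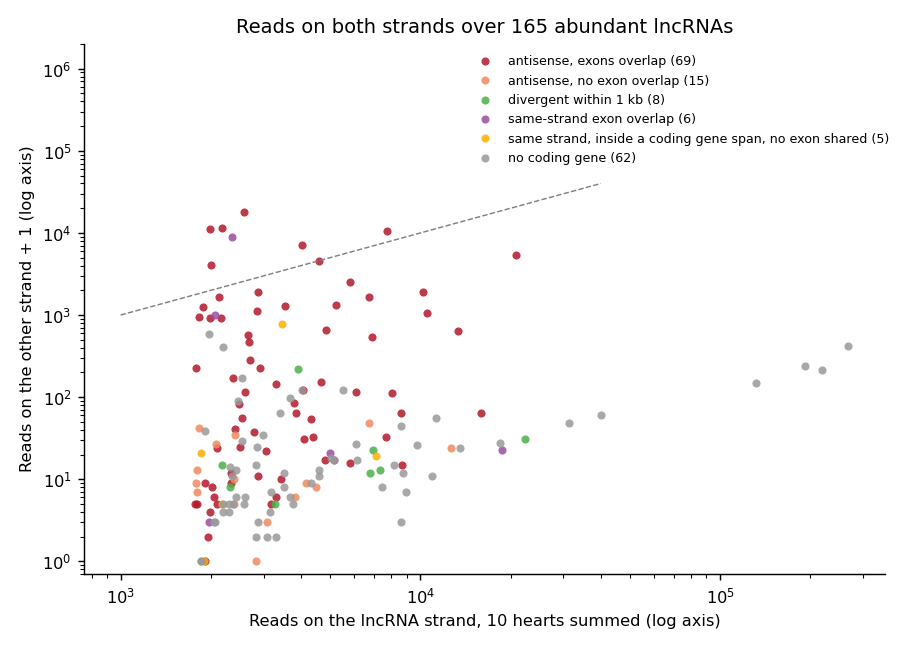
Reads on the strand of each of the 165 lncRNAs (x axis) and on the other strand plus 1 (y axis), summed over the 10 hearts, both on log axes, coloured by position relative to coding genes. Points above the dashed line of equal counts are the 7 lncRNAs with more reads on the other strand, of which 6 share exon sequence in antisense with a coding gene and 1, Snhg14, also shares exons on the same strand.

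Markers of other cell types were read beside these results. The 8 atrial markers were all detected, 2 of them (Sln and Dkk3) passed, both higher, and their sum, most of it Nppa, was 6362, 5541, 7770, 6785 and 5174 CPM in training and 7019, 2881, 4755, 4971 and 2915 CPM in sedentary hearts. Sedentary heart 1 lay within the training range and the other 4 below it. With the atrial score as a covariate, 4631405J19Rik, Gm15543, D830024N08Rik and Gm50114 passed, all lower, and the count over all genes tested went from 1084 to 158. The score lay between 0.05 and 0.58 in training hearts and between −0.90 and 0.39 in sedentary hearts. It thus went partly with the group, and training and atrial share cannot be told apart in this fit. The 8 cardiomyocyte markers had 1 call, Actc1, and a sum, to which Myh6 gave the most, of 60302 ± 1875 CPM in training and 66427 ± 3332 CPM in sedentary hearts (SD, n = 5 each). Of 5 fibroblast markers Pdgfra alone passed and was higher, of 5 endothelial markers Tie1 alone passed and was lower, and of 4 mural markers Rgs5 alone passed and was lower. Of 3 tested skeletal muscle markers Acta1 and Ckm, both also expressed in heart, were lower. The median log2 fold change over each whole list was 0.17 for fibroblast, −0.09 for endothelial, 0.03 for mural and −0.22 for skeletal muscle markers. Macrophage, adipocyte, erythroid, epicardial and lymphocyte markers had 0 calls in edgeR among 15 tested, where 1 had an unadjusted p under 0.05 and 0 passed in DESeq2. The part of any of these cells in the changes of the lncRNAs was not tested.

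Within a group, the lncRNAs varied between hearts by a median of 10.1% (coefficient of variation), from 4.56% to 53.7%, where counting alone gives a median of 5.63%. 12 lncRNAs varied by over 20%. The widest were Erdr1y, a transcript of the end of the Y chromosome, which was at 14.0 CPM in sedentary heart 4 and between 3.01 and 5.78 CPM in the other 9 hearts, then Gm42047, Gm56730 and H19. Erdr1y and Gm56730 had expected counts 8.75 and 12.9 times their uniquely mapped counts, and the cause was not tested. Such a ratio was over 1.5 in 9 of the 165 lncRNAs, of which Norad (2.65), Gm49708 (2.75) and Actc1dt (2.51) were among the 10 most abundant.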

How the data were processed

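The authors made 1 directional poly-A library per heart and sequenced them in 1 pool. They deposited, for each gene and strand, the raw count of reads with a single match (STAR 2.7.10a, GRCm39), and expected counts and TPM per gene (RSEM 1.3.3), which share out reads with several matches; the TPM were not used here. Counts of the reverse strand were used, without the lines that are no gene. Gene types, spans and exons came from GENCODE M39, in which 56017 of 56748 identifiers were found. A gene model newer than that of the counting can differ from it.

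Groups came from the labels. edgeR 4.0.16 (filterByExpr, TMM, quasi-likelihood F test, Benjamini-Hochberg over all genes tested, FDR below 0.1) was fitted on all genes in R 4.3.3. Standard errors are the log2 fold change over the root of F. The partner is the coding gene that overlaps or starts within 1000 bases in the opposite direction, the most abundant where several do. The members and lists were chosen with earlier results of these data known. Named are all lncRNAs past the FDR, the 10 most abundant, those next to 5 CPM, members of the lncRNA lists, their partners, and others chosen after their values were seen (Chaer1, Gm20300, Cep83os, 9530026P05Rik, Atcayos, Erdr1y, Gm56730, A330023F24Rik, D830005E20Rik and the strand examples). On simulated data of 15330 genes for this comparison, 76.4% of changes of 0.5 and 92.4% of changes of 1 on the log2 scale were found, and 10.8% of calls were false. Libraries of a group differed by more than counting noise (chi-square per degree of freedom 6.16 to 27.4). Alternatives included DESeq2 1.42.0, other scalings and filters, both strands, expected counts rounded to whole numbers, each heart left out, and, chosen after seeing the data, counts thinned to the smallest library.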

Additional observations from a re-analysis of the deposited data

Results flagged for a closer look

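In 116 groups of 5 hearts, those of 58 named lncRNAs, some of them named after their values were seen, the heart farthest from the others was set against Dixon's limit, which chance passes in about 1 group of 20; 7 groups passed it. Neat1 was at 441.7 CPM in sedentary heart 4, the lowest, with the other sedentary hearts between 631.7 and 704 CPM. Gm5532 was at 106.5 CPM in sedentary heart 2, the highest, with the others between 87.6 and 92.9 CPM. Gm49708 was at 60.2 CPM in sedentary heart 4, also the highest, with the others between 51.9 and 54.2 CPM. Among those named after their values were seen, Erdr1y was at 14.0 CPM in sedentary heart 4, with the others between 3.01 and 5.44 CPM, and 9130221H12Rik at 6.80 CPM in the same heart, with the others between 6.02 and 6.14 CPM. Cep83os was at 8.49 CPM in training heart 1, with the others between 6.60 and 6.77 CPM, and Chaer1 at 7.66 CPM in training heart 3, the lowest, with the others between 9.98 and 10.9 CPM.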

How the results depend on the processing

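The count of 19 lncRNAs was 28 with DESeq2's Wald test (19 of them shared), 19 with DESeq2 size factors, 17 with library totals, 23 without a filter, 20 with at least 10 counts in every library, 18 with expected counts, 15 with both strands and 18 with thinned counts. It fell to 4 with the atrial score as a covariate, to 9 at an FDR below 0.05 and to 9 of 70 lncRNAs of at least 10 CPM. Leaving out single hearts gave between 8 and 24 calls, with 11 and 10 without training hearts 3 and 4 and 8 and 12 without sedentary hearts 3 and 5; the cause was not tested. All 19 kept their sign in every fit, and 7 passed in all 10 fits that left out a heart: 4631405J19Rik, Gm15543, Gm17029, D830024N08Rik, Actc1dt, 2210408F21Rik and Gm30786. 4631405J19Rik, Gm15543 and D830024N08Rik also passed in all 11 other settings.

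The median of the 165 lncRNAs was 0.017 with library totals alone, where that of all genes was 0.05, and the share of counts was 0.571% in training and 0.577% in sedentary hearts without mitochondrial DNA genes in the total. Directions that turned were those of values near 0: Neat1 at 0.035 with library totals, 0.061 with the atrial covariate and between −0.11 and 0.081 on leaving out single hearts, above 0 without training heart 3 or sedentary heart 1, 2 or 3, Gm57414 at 0.0028 and 0.018 with the first 2 of these settings, Oip5os1 at 0.028 with library totals, and the ratio of D830039M14Rik to Lrrc20 between −0.094 and 0.000397 on leaving out single hearts, above 0 without training heart 1 alone. The mouse numbers were not taken as pairs, since same-numbered hearts had residual correlations between −0.10 and 0.16; with the replicate block 20 lncRNAs passed, 18 of them among the 19. At these depths the lncRNAs had at least 93 counts in any heart.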

Other observations

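Coding genes of RNA-binding and RNA-processing proteins and of the circadian clock were read from hand-written lists. Among 9 genes of proteins of paraspeckles and nuclear speckles, the bodies in which Neat1 and Malat1 reside, 0 passed an FDR of 0.1 in edgeR, with 1 at an unadjusted p under 0.05 and 1 past the FDR in DESeq2; the median log2 fold change was −0.01 and the most abundant was Srrm2. Of 12 genes of snoRNA particles and ribosome biogenesis, Nop10 passed, with 28.8 CPM after training and 32.9 CPM in sedentary hearts. Of 16 genes of RNA decay, Smg5, a factor of nonsense-mediated decay, passed, with 70.2 and 79.8 CPM. Of 16 clock genes, 9 passed, 6 higher and 3 lower, among them Bmal1 with 7.36 CPM after training and 16.8 CPM in sedentary hearts and Per3 with 29.7 and 17.0 CPM. Over all genes tested 7.01% passed, and no list was tested against another.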
